A study of Arabidopsis thaliana with 45 samples.

Results

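The windows described here are stretches of 200 bp inside genes that were almost free of CG methylation in at least 1 group of Arabidopsis plants and methylated in another. They were selected on the deposited methylation levels themselves. A window belonged to the set when it was a CG window of the gene-body class outside transposable elements (TEs) and when the lowest level listed for it in any group was below 0.1. Of the 2331 distinct CG windows listed in the 10 tables that hold differentially methylated regions (DMRs), 961 were gene-body windows outside TEs, and 417 of those met the rule. The 417 windows carried 406 different gene names. The other 544 gene-body windows, whose lowest listed level was 0.1 or more, are given beside them for comparison. Because the levels chose the windows, the levels below are a description and no test was made on them.

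Rosettes of Arabidopsis thaliana (Columbia) were compared over the parent generation (P0) and its offspring S1 and S2, each under γ0 (the control, natural background radiation), γ30 (30 mGy/h) and γ110 (110 mGy/h), with 5 samples in each of the 9 groups and 45 in all. The S2γ110, S2γ30, S1γ110 and S1γ30 plants came from seed of parents irradiated in the same way, P0γ110 and P0γ30 plants had no irradiated ancestors, and the γ0 plants of S2, S1 and P0 were kept without the source. Gamma rays from a Cs-137 source were given for 14 days to plants grown on hydroponic plugs, from an age of 7 days by the series design and of 14 days by the sample labels. Whole genome bisulfite sequencing, which reads unmethylated cytosines as thymines, was used to measure methylation. Each table lists 1 level per group, a fraction between 0 and 1, and only for windows that passed the authors' thresholds in that comparison. The spread between the 5 samples, the coverage behind a level and the levels of unlisted pairs are therefore unknown here, and no error could be given for any level. A level describes a pool of plants and cells, so a change in a share of the plants and a change in a share of the cells cannot be told apart.

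Gene-body methylation in plants sits almost wholly on CG sites and is found mainly in the exons and introns of long, steadily expressed genes, away from both gene ends. It is copied onto the new strand after replication by the maintenance methyltransferase MET1, and failures of this copying can be inherited by the offspring, so that single CG sites are gained or lost between generations. DNA glycosylases of the DME and ROS1 family can remove it actively. Its role in the expression of the genes that carry it is still debated.

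The windows with the largest contrasts held very few CG sites. The sequences of 9 windows are printed because the results turn on them, with every CG in capitals and all other bases in lower case. They were read 5′ to 3′ on the plus strand of the TAIR10.1 assembly from RefSeq at the coordinates listed for TAIR10, and all 9 genes lie on the minus strand. None of them overlapped an untranslated region (UTR). The first 3 were unmethylated in 1 listed group and methylated in the rest, the next 4 were methylated in S2γ30 alone, AGO4 had its neighbouring window change the other way, and BOR7 stands for the windows with many sites.
AT5G15680: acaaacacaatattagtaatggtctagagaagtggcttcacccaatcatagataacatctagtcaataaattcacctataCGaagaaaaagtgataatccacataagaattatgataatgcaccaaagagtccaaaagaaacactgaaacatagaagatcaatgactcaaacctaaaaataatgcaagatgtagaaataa
emb2411: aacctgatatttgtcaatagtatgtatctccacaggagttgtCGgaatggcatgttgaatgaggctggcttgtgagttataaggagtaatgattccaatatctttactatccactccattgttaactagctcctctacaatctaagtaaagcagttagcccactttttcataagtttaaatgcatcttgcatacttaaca
4CLL6: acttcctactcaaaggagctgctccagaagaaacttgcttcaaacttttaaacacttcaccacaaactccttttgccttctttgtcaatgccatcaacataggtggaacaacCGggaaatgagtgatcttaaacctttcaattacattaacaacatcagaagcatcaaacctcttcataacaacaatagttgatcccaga
AT1G17930: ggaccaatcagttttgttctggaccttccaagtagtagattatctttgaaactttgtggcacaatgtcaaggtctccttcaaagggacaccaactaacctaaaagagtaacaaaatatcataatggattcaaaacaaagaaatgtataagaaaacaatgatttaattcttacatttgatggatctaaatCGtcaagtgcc
TPR16: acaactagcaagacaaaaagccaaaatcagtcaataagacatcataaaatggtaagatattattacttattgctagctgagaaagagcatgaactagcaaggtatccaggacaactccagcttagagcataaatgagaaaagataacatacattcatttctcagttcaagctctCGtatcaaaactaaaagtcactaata
MLO8: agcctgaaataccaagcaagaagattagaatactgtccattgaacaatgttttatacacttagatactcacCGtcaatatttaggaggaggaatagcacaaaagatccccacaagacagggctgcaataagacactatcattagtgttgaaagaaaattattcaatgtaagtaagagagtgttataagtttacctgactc
CPL2: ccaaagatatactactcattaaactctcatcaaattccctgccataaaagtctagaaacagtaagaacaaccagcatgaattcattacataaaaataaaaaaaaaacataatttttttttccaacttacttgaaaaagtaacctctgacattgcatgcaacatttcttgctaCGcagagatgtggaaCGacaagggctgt
AGO4: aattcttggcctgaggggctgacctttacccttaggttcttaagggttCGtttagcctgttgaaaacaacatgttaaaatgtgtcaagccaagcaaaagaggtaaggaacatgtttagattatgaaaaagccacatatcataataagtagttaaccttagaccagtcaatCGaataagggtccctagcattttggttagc
BOR7: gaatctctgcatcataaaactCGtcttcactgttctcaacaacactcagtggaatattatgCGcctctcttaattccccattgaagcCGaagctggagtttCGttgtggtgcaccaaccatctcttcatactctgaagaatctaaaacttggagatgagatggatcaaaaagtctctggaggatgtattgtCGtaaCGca

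The window of AT5G15680 (chr5:5110001-5110200, in an intron) had its single CG at base 81. In emb2411 (chr1:2830001-2830200, 138 bp coding and 62 bp intron) the CG stood at base 43. The window of 4CLL6 (chr4:10413201-10413400) was coding throughout, with the CG at base 113. Those of AT1G17930 (chr1:6167201-6167400), TPR16 (chr5:4031601-4031800) and MLO8 (chr2:7591801-7592000) spanned exon borders and held 1 CG each, at bases 190, 175 and 72. In CPL2 (chr5:110201-110400) and AGO4 (chr2:11540001-11540200) there were 2 CG sites, and in BOR7 (chr4:15686001-15686200, coding throughout) there were 6.

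By count, most levels below 0.1 were in S1γ30 and S2γ30, the groups with the most listed windows, although S2γ30 was more often methylated than low. A level below 0.1 was listed in S1γ30 for 232 of the 368 set windows with a level in that group, in S2γ30 for 159 of 400, in S2γ0 for 96 of 169 and in P0γ30 for 46 of 87. S1γ0 was low in 8 of 23, S1γ110 in 2 of 8 and S2γ110 in 2 of 6. P0γ0 and P0γ110 have no listed level at all, since their tables hold no window. In 156 windows the low level was listed in S1γ30 only and in 149 in S2γ30 only, while 44 were low in both S1γ30 and S2γ0 and 30 in P0γ30, S1γ30 and S2γ0 together. Which groups can be low is set by which comparisons list a window, and 256 windows were listed in 1 comparison, 102 in 2, 54 in 3 and 5 in 4.

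The low state was close to 0 and the high state was mostly modest. The lowest listed level had a median of 0.0116, with quartiles of 0.00500 and 0.0254. The highest had a median of 0.323, with quartiles of 0.264 and 0.432 and a range of 0.201 to 0.943. In 171 windows (41.0%) the highest level lay between 0.2 and 0.3, and in 30 it was above 0.7. The 544 other gene-body windows had a median highest level of 0.713 and a median lowest level of 0.410. Just inside the limit of 0.1 were XI-F, a myosin, at 0.0975, AT4G21170 at 0.0983 and AT1G04390 at 0.0989, all of them in S1γ30. Just outside it were AT2G45520 at 0.102 in S2γ30, AT1G70380 at 0.102 in P0γ30 and AT3G17800 at 0.106 in S2γ0.

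**Figure D1:**
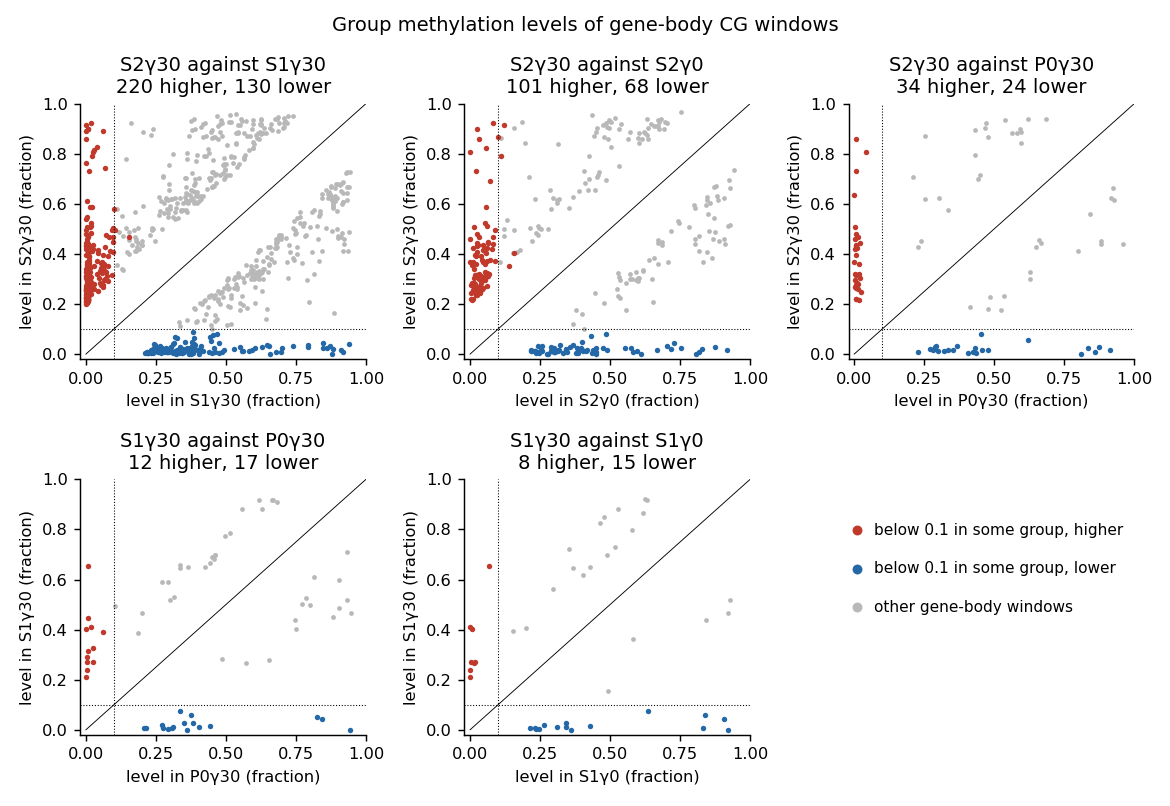
Methylation level (fraction) of every listed gene-body CG window outside TEs in the later generation or irradiated group (vertical axis) and in the group it was compared with (horizontal axis), 1 panel for each comparison with more than 20 windows of the set. Red and blue points are windows below 0.1 in some group, higher or lower in the first-named group, grey points are the other gene-body windows, the diagonal marks equal levels and the dotted lines mark 0.1. The coloured points lie along the axes by the rule that chose them, with 220 red and 130 blue windows in S2γ30 against S1γ30.

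In S2γ30 against S1γ30, 350 windows of the set were listed, of which 220 (62.9%) were hypermethylated and 130 hypomethylated in S2γ30. Over all 1844 CG windows listed in that comparison, 56.0% were hypermethylated and 47.3% had a level below 0.1 in either group. In the other gene-body windows of the comparison, 228 of 434 (52.5%) were hypermethylated. The hypermethylated windows of the set had a median of 0.313 in S2γ30 and 0.00813 in S1γ30, and the hypomethylated ones 0.0169 in S2γ30 and 0.349 in S1γ30. The largest increase was that of GRV2, a DnaJ-domain protein needed for endosomal traffic and gravitropism, with 0.916 in S2γ30 and 0 in S1γ30. The largest decrease was that of 4CLL6, a 4-coumarate-CoA ligase-like enzyme, with 0.00763 in S2γ30 and 0.920 in S1γ30. All but 2 of the 350 windows had their low level in this pair of groups.

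S2γ30 against S2γ0 listed 169 windows of the set, 101 hypermethylated (59.8%) and 68 hypomethylated. Of all 771 CG windows there, 59.4% were hypermethylated and 53.0% had a level below 0.1 in either group, so the share of increases was near that of the whole table. Increases had a median of 0.329 in S2γ30 and 0.0338 in S2γ0, and decreases 0.0157 in S2γ30 and 0.373 in S2γ0. MLO8, a membrane protein of the MLO family, had the largest increase, with 0.900 in S2γ30 and 0.0256 in S2γ0. The largest decrease, in AT5G15680, an ARM-repeat protein, was to 0.0168 in S2γ30, against 0.919 in S2γ0. In 5 windows neither level of this pair was below 0.1. The comparison shares the S2γ30 group with the preceding one, so the 2 sets of values are not independent.

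Against P0γ30, S2γ30 had 34 hypermethylated and 24 hypomethylated windows of the set, or 58.6% increases, where 62.5% of all 272 CG windows listed there were hypermethylated and 61.0% had a level below 0.1. TPR16, a DnaJ protein with tetratricopeptide repeats, had the largest increase, at 0.858 in S2γ30 and 0.00763 in P0γ30. S1γ30 against P0γ30 listed 29 windows, with 12 increases (41.4%) and 17 decreases, where 49.5% of all 184 CG windows were hypermethylated and 48.4% had a low level. The largest of these decreases, in emb2411, annotated as a DNA replication helicase, reached 0 in S1γ30, against 0.943 in P0γ30. In S1γ30 against S1γ0 there were 8 increases (34.8%) and 15 decreases, where 51.2% of all 129 CG windows were hypermethylated and 55.0% had a low level. In the other gene-body windows of this comparison 16 of 21 (76.2%) were hypermethylated. AT1G51730, a ubiquitin-conjugating enzyme whose window lies in a UTR, had the largest increase both there and against P0γ30, with 0.655 in S1γ30, 0.0661 in S1γ0 and 0.00735 in P0γ30.

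The γ110 groups added few windows. S1γ110 against S1γ30 listed 7, with 6 increases and 1 decrease, where 54.1% of all 37 CG windows were hypermethylated and 51.4% had a level below 0.1. Of the other gene-body windows there, 6 of 11 (54.5%) were hypermethylated. The largest increase was that of AT1G07040, at 0.858 in S1γ110 and 0.0413 in S1γ30. The decrease was that of MCM8, which in Arabidopsis takes part in the repair of meiotic breaks, at 0.00725 in S1γ110 and 0.392 in S1γ30. S2γ110 against S2γ30 listed 4, where 80.0% of all 15 CG windows had a low level. In AT5G15680 the level was 0.880 in S2γ110 and 0.0168 in S2γ30. AT5G08630, a DDT-domain protein, had 0.775 in S2γ110 and 0.0256 in S2γ30, and PDF1B, an organellar peptide deformylase, had 0.470 in S2γ110 and 0.00402 in S2γ30. In CPL2, a phosphatase of the RNA polymerase II tail, it was 0.00897 in S2γ110 and 0.367 in S2γ30. S2γ110 against S1γ110 listed AT5G42660 alone of the set, with 0.867 in S2γ110 and 0 in S1γ110, where 64.3% of all 14 CG windows had a low level. AT5G19150, a pfkB-like kinase, was the only window of the set listed for S2γ110 against S2γ0, at 0.0169 in S2γ110 and 0.729 in S2γ0, where 80.0% of all 5 CG windows had a low level. S1γ110 against S1γ0 listed no window of the set.

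For 161 windows a level was listed in 3 or more groups, so that the order of the groups could be followed. In 158 of them a single group was common to all comparisons that listed the window, S2γ30 in 130 and S1γ30 in 28. That this group stood at least 0.2 from each of the others is fixed by the listing. S2γ30 was the high group in 83 windows, with a median of 0.323, and S1γ30 in 11, with a median of 0.313. In these windows the selection also holds the other groups between 0 and the shared level minus 0.2, so their closeness to each other is no result. S2γ30 was the low group in 47 windows, with a median of 0.0167. Here the others could differ above 0.2 where no comparison paired them. In 24 of the 47 the others were S1γ30 and S2γ0, which no listed comparison pairs. Where the others included a compared pair, such as P0γ30 and S1γ30, a listed difference between them would have removed the window from this count. The others lay within 0.1 of each other in 40 of the 47 (median spread 0.0472). The same held in 14 of the 17 windows where S1γ30 was the low group (median spread 0.0486). These counts are therefore partly fixed by the listing.

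**Figure D2:**
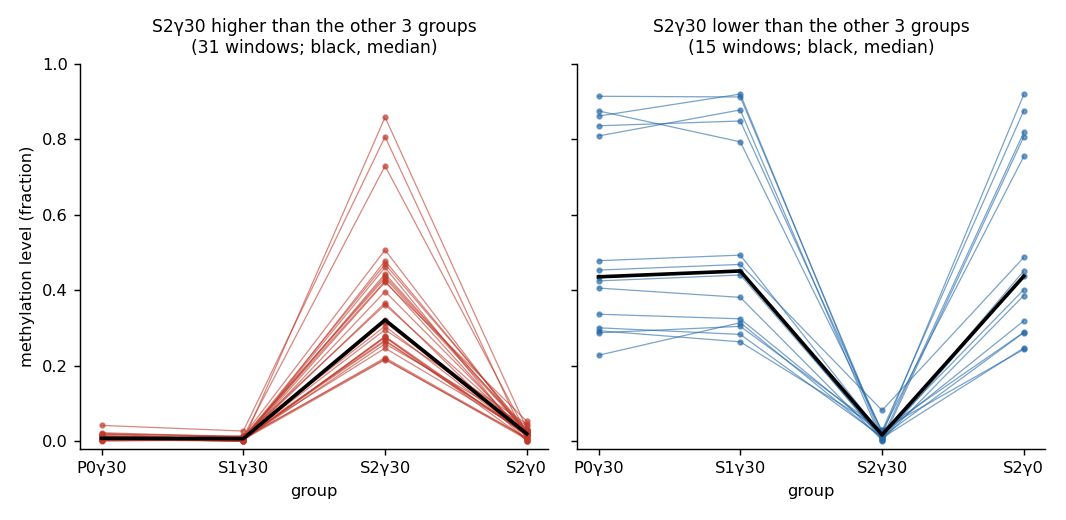
Methylation level (fraction) of the windows listed with S2γ30 as the group common to all comparisons and with levels in P0γ30, S1γ30, S2γ30 and S2γ0, 31 windows where S2γ30 was higher (left) and 15 where it was lower (right). Each thin line is 1 window and the black line joins the medians, which are 0.321 in S2γ30 at the left, against 0.00778 in P0γ30, 0.00677 in S1γ30 and 0.0198 in S2γ0.

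Among the windows listed in the most comparisons the loss in S2γ30 was near complete. Over the generations at γ30, AT5G15680 stood at 0.914 in P0, 0.912 in S1 and 0.0168 in S2, and the other S2 groups had 0.919 under γ0 and 0.880 under γ110. AT5G08630 had 0.836 in P0γ30, 0.848 in S1γ30 and 0.0256 in S2γ30, beside 0.754 in S2γ0 and 0.775 in S2γ110. In both genes S2γ30 was the only unmethylated group of the 5. 4CLL6 had 0.861 in P0γ30, 0.920 in S1γ30, 0.00763 in S2γ30 and 0.818 in S2γ0. AT1G72420, annotated as an assembly factor of mitochondrial complex I, had 0.809 in P0γ30, 0.878 in S1γ30, 0 in S2γ30 and 0.807 in S2γ0. AT2G47090, a nucleic acid-binding zinc protein, had 0.875 in P0γ30, 0.793 in S1γ30, 0.0275 in S2γ30 and 0.876 in S2γ0.

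The reverse pattern was seen in TPR16, with 0.00763 in P0γ30, 0 in S1γ30, 0.858 in S2γ30 and 0.0336 in S2γ0. AT1G17930, a plant mobile domain protein, had 0.0420 in P0γ30, 0.0270 in S1γ30, 0.807 in S2γ30 and 0 in S2γ0. In CPL2, with its 2 CG sites, the level was 0 in P0γ30, 0.00461 in S1γ30 and 0.367 in S2γ30, beside 0 in S2γ0 and 0.00897 in S2γ110, so that S2γ30 alone of the 5 groups was methylated. PDF1B, also with 2 sites but in a UTR, was the mirror image, at 0.436 in P0γ30, 0.451 in S1γ30 and 0.00402 in S2γ30, beside 0.437 in S2γ0 and 0.470 in S2γ110.

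In other genes S1γ30 was the low group and S2γ30 was methylated. The window of emb2411 had 0.943 in P0γ30, 0 in S1γ30 and 0.892 in S2γ30, with 0.920 in S1γ0. AT1G07040 had 0.842 in P0γ30, 0.0413 in S1γ30 and 0.828 in S2γ30, with 0.906 in S1γ0 and 0.858 in S1γ110. In both genes S1γ30 was the only unmethylated group listed. CDKD-3, a kinase that activates cyclin-dependent kinases and phosphorylates the RNA polymerase II tail, had 0.443 in P0γ30, 0.0165 in S1γ30 and 0.482 in S2γ30, with 0.428 in S1γ0. VPS33, a vacuolar sorting protein, had 0.900 in S2γ30 and 0.00826 in S1γ30, with 0.833 in S1γ0. These last 2 genes were named after their values were seen.

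In 3 windows no single group was common to the comparisons that listed them. The level of MCM8 was 0.0618 in P0γ30, 0.392 in S1γ30 and 0.367 in S2γ30, with 0.00725 in S1γ110 and 0.0455 in S2γ0, so that both irradiated offspring groups at 30 mGy/h were methylated and the others were not. Its window lies at the annotated end of the gene, with 48 bp coding, 81 bp in the UTR and 32 bp beyond the gene. AT5G19150 had 0.0427 in S2γ30 and 0.0169 in S2γ110, against 0.846 in S1γ30 and 0.729 in S2γ0, so that both irradiated S2 groups were low. AT5G42660 had 0.867 in S2γ30 and in S2γ110, with 0 in S1γ110 and 0.101 in S2γ0. In other windows 1 group was low while the methylated groups differed among themselves. CHX7, a cation/proton exchanger, had 0.342 in S1γ0, 0.0259 in S1γ30 and 0.630 in S1γ110. TAF6, a subunit of the general transcription factor TFIID, had 0.0342 in S2γ30, against 0.870 in S1γ30 and 0.702 in S2γ0.

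Low levels were not equally low in all groups. In the 75 windows of the set where S2γ0 and S1γ30 were both below 0.1, S2γ0 was the higher of the pair in 67, with a median of 0.0262 in S2γ0 and 0.00744 in S1γ30 and a median difference of 0.0185. No listed comparison pairs these groups, so the rule did not set this order beyond both being low. S2γ0 also lay above P0γ30 in 24 of 33 such windows, with medians of 0.0198 in S2γ0 and 0.00781 in P0γ30. P0γ30 lay above S1γ30 in 19 of 32, with medians of 0.00780 in P0γ30 and 0.00739 in S1γ30. In the listed CG windows outside the set, S2γ0 was likewise higher than S1γ30 in 81 of the 96 windows where both were low. Where S2γ0 and S1γ30 were both at 0.5 or more, S2γ0 was the lower of the pair in 9 of 11 windows of the set and in 81 of 120 windows outside it. Against P0γ30 at that limit, S2γ0 was the lower in 3 of 5 windows of the set and in 31 of 51 outside it. With both at 0.2 or more, S2γ0 was the lower in 26 of 40 windows of the set against S1γ30 and in 10 of 20 against P0γ30. Exact zeros were listed for 27 of the 232 low levels of S1γ30, 7 of the 159 of S2γ30, 4 of the 46 of P0γ30 and 3 of the 96 of S2γ0. Coverage and bisulfite conversion by group were not analysed here, and their part in this was not tested.

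The height of the methylated state followed the number of CG sites in the window. Of the 417 windows, 49 (11.8%) held 1 CG in the reference sequence, 116 (27.8%) held 2, 115 (27.6%) held 3, 59 held 4, 34 held 5 and 44 held 6 or more. The other gene-body windows held 1 CG in 5 cases (0.919%) and 2 in 74 (13.6%), and of all windows of minus-strand protein-coding genes with a CG in the genome 8.45% held 1 and 13.0% held 2. The median highest level of the set was 0.789 with 1 CG, 0.418 with 2, 0.293 with 3 and 0.259 with 4. The highest level multiplied by the number of sites had medians of 0.789, 0.836 and 0.878 for 1, 2 and 3 sites, close to each other and below 1. Single windows lay above 1, up to 1.53 with 2 sites and 1.86 with 3. In the other gene-body windows this product was 0.887, 1.79 and 1.90 for the same numbers of sites, where the rule itself keeps the levels higher. The range of levels multiplied by the number of sites was about the same in both sets, with medians of 0.756, 0.794 and 0.819 for 1, 2 and 3 sites in the set and 0.746, 0.856 and 0.857 in the others, so that a change of this size was not particular to the set. With 1 to 3 sites, the range product was above 1 in 30 of 280 windows of the set (10.7%) and in 37 of 234 others (15.8%). A product of 1 is what 1 fully methylated site and no methylation at the rest would give if each site counted equally, but levels of single sites were not used here. The authors' minimum difference of 0.2 sets a floor of 0.2 for 1 site, 0.4 for 2, 0.6 for 3 and 0.8 for 4, so the product carries little information from 4 sites upwards.

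Of the 30 windows with a level above 0.7, 28 held 1 CG. The other 2, named after their values were seen, held 2 sites each. They were RBOHI, an NADPH oxidase of the respiratory burst family, with 0.729 in S2γ30, against 0.0121 in S1γ30, 0.00687 in P0γ30 and 0.0210 in S2γ0, and AT4G23350, with 0.763 in S2γ30 and 0 in S1γ30. Also named on its values, the highest level in a window of 4 or more sites was that of AT1G05950, with 4 sites, at 0.0243 in S2γ30, against 0.699 in S1γ30 and 0.576 in S2γ0. Among the 1-CG windows, 14 had a highest level above 0.5 and up to 0.7 and 7 had one of at most 0.5, down to 0.207. Of the single CG sites, 22 lay in coding sequence, 20 in introns, 6 in UTRs and 1 in none of these. With the bases on either side, 13 of the 49 read ACGA and 11 TCGA on one strand or the other (26.5% and 22.4%), and of 1-CG windows in minus-strand genes of the genome 25.7% and 13.3% read so.

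**Figure D3:**
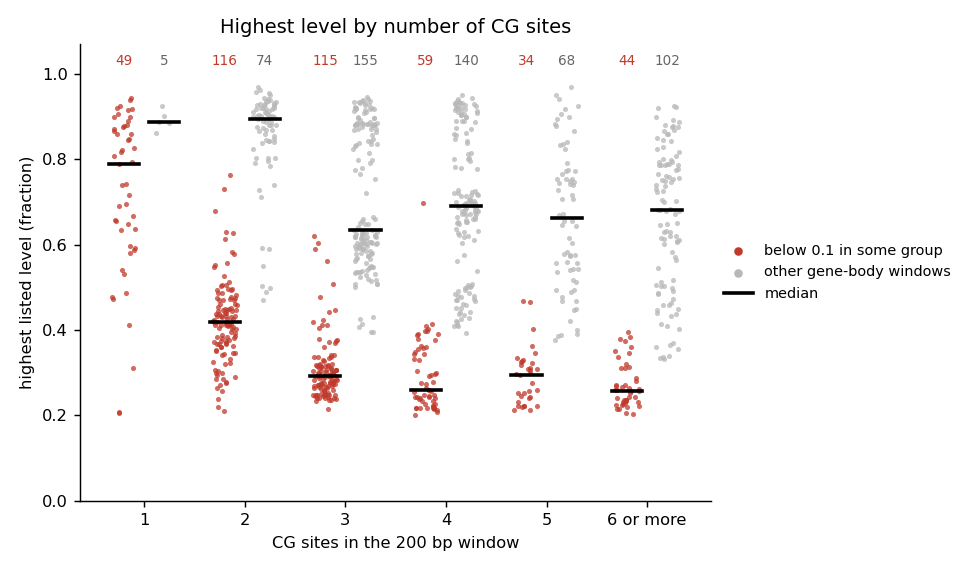
Highest listed methylation level (fraction) of each gene-body window by the number of CG sites in its 200 bp, for windows below 0.1 in some group (red) and the other gene-body windows (grey), with the number of windows above and black bars for the medians. The red medians step down to 0.789, 0.418 and 0.293 for 1, 2 and 3 sites, while the grey ones are 0.887, 0.894 and 0.634.

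The windows lay mainly in coding exons and introns of minus-strand genes. A protein-coding gene of the annotation overlapped 414 of the 417, and 387 (92.8%) lay in minus-strand genes only and 10 (2.40%) in plus-strand genes only. How the gene-body class came to hold so few plus-strand genes was not tested. The set therefore says next to nothing about plus-strand genes. Coding sequence was overlapped by 355 windows (85.7%), introns by 275 (66.4%) and UTRs by 69 (16.7%), where the shares of the other gene-body windows were 92.8%, 68.6% and 9.23%. Of 1301 CG sites in the set, 70.2% were coding, 21.8% intronic and 7.99% in UTRs, against 74.9%, 21.1% and 4.04% of 2228 sites in the other windows. Median gene length, counted once per window, was 3220 bp in the set and 3835 bp in the others. The median over all 13666 minus-strand protein-coding genes, counted once per gene, was 2100 bp. Longer genes hold more windows, so this last median is not a like measure and no excess of long genes is read from it. GC content had a median of 37.5% in the set and 39.0% in the others.

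Along the gene, both kinds of window were commonest in the second part, with a median position of 60.6% of the gene length in each. The windows of the set reached nearer to the ends. Their centre lay within 500 bp of the annotated gene end or beyond it in 87 (21.0%), against 58 (10.7%) of the others, and within 500 bp of the gene start or before it in 21 (5.07%), against 14 (2.58%). The last 10th of the gene held 9.20% of the set and 4.26% of the others. The 5 chromosomes held 118, 73, 55, 78 and 93 windows of the set in order of chromosome number, shares of 28.3, 17.5, 13.2, 18.7 and 22.3%, where the others had 24.6, 18.2, 14.2, 19.3 and 23.7%.

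**Figure D4:**
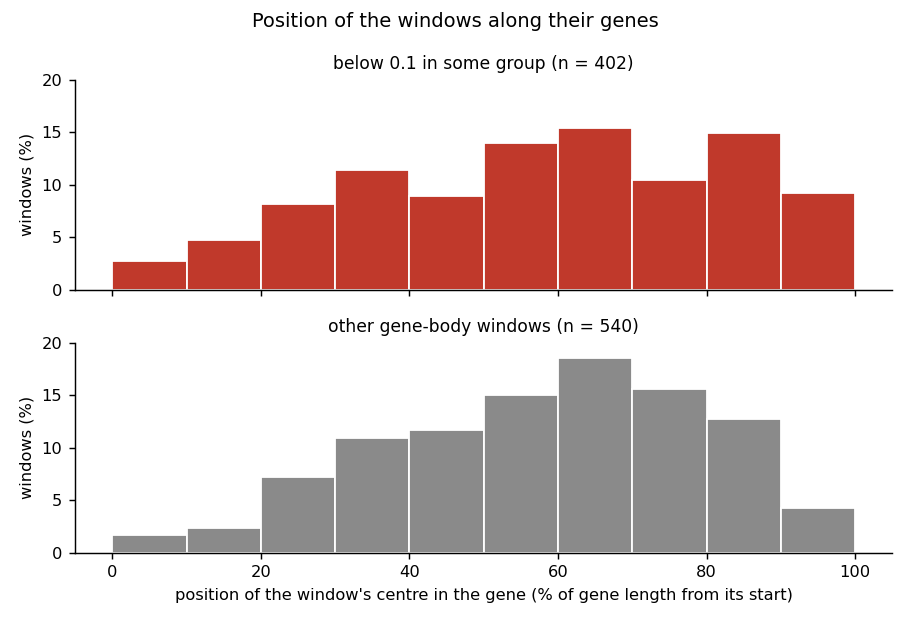
Share of windows (%) in each 10th of the length of their gene, counted from its start in the direction of transcription, for windows below 0.1 in some group (above, n = 402) and the other gene-body windows (below, n = 540), leaving out 12 and 2 windows whose centre lies beyond the gene. The last bar is at 9.20% above and 4.26% below.

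Member windows were mostly alone. Of the 417, 38 had another listed CG window within 1000 bp, 14 had another window of the set within that distance and 11 had a listed window directly next to them. The same counts were not made for the other listed windows, so this is not read as particular to the set. No gene held more than 2 windows of the set, and 11 genes held 2. In 10 of these genes both windows were listed in S2γ30 against S1γ30, and in 9 both changed in the same direction, upwards in 6 and downwards in 3.

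Both windows were hypermethylated in S2γ30 against S1γ30 in MLO8 (0.900 against 0.00813, and 0.306 against 0.0174, 600 bp apart), in AT1G18470 (0.495 against 0, and 0.360 against 0.00500, next to each other) and in BOR7, a borate transporter (0.236 against 0.0115, and 0.308 against 0.00647, 1800 bp apart). The same held for AT2G41830, DSE1, a WD40-repeat protein, and AT4G40000, a methyltransferase-like protein. In AT4G40000 the windows differed in P0γ30, however, with 0.310 in the one and 0.0205 in the other. Both were hypomethylated in AT1G50190 (0.0323 against 0.740, and 0.0299 against 0.628, adjacent), in BPG2, a chloroplast GTP-binding protein (0.00707 against 0.282, and 0.0196 against 0.347), and in AT4G38760, a nucleoporin, whose windows were 7000 bp apart (0.00549 against 0.267, and 0.0289 against 0.304).

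VIP4 and AT5G01660 held windows that went opposite ways. VIP4 encodes a subunit of the Paf1 complex, which travels with RNA polymerase II and in Arabidopsis keeps the flowering repressor FLC active. Its intronic window at chr5:24605401-24605600 had 0.0506 in S2γ30, 0.448 in S1γ30 and 0.00749 in P0γ30, while that at chr5:24606001-24606200, 600 bp away, had 0.316 in S2γ30, 0.0118 in S1γ30, 0.0112 in P0γ30 and 0.0198 in S2γ0. A further window of VIP4 outside the set had 0.157 in S2γ30 and 0.463 in S1γ30. In AT5G01660 the window at chr5:245401-245600 had 0.0247 in S2γ30, 0.397 in S2γ0 and 0.432 in P0γ30, and that at chr5:246401-246600 had 0.265 in S2γ30, 0.0221 in S2γ0 and 0.00809 in P0γ30.

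Directly adjacent listed windows, at least 1 of them in the set, formed 9 pairs. Of these, 6 pairs shared a comparison, and the windows changed in the same direction in 4 and in opposite directions in 2. The genes of both opposite pairs, and HRD1B, were named after their values were seen. In F14L17.24 the window of the set had 0.430 in S2γ30 and 0.00897 in S1γ30, and the window next to it had 0.266 in S2γ30 and 0.538 in S1γ30. The other opposite pair lay in AGO4, the Argonaute protein of RNA-directed DNA methylation. Its window at chr2:11540001-11540200, printed above, was at 0 in S2γ30, against 0.374 in S1γ30 and 0.449 in S2γ0. The window directly next to it, with 1 CG and not part of the set, was at 0.902 in S2γ30 and 0.156 in S2γ0. Further AGO4 windows outside the set also went both ways. That at chr2:11538201-11538400 had 0.676 in S2γ30 and 0.906 in S1γ30, and that at chr2:11538801-11539000 had 0.937 in S2γ30 and 0.5545 in S1γ30. The adjacent window of HRD1B, an E3 ligase of the endoplasmic reticulum, changed the same way as the window of the set, with 0.633 in S2γ30 and 0.890 in S1γ30, beside 0.0180 in S2γ30 and 0.324 in S1γ30.

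**Figure D5:**
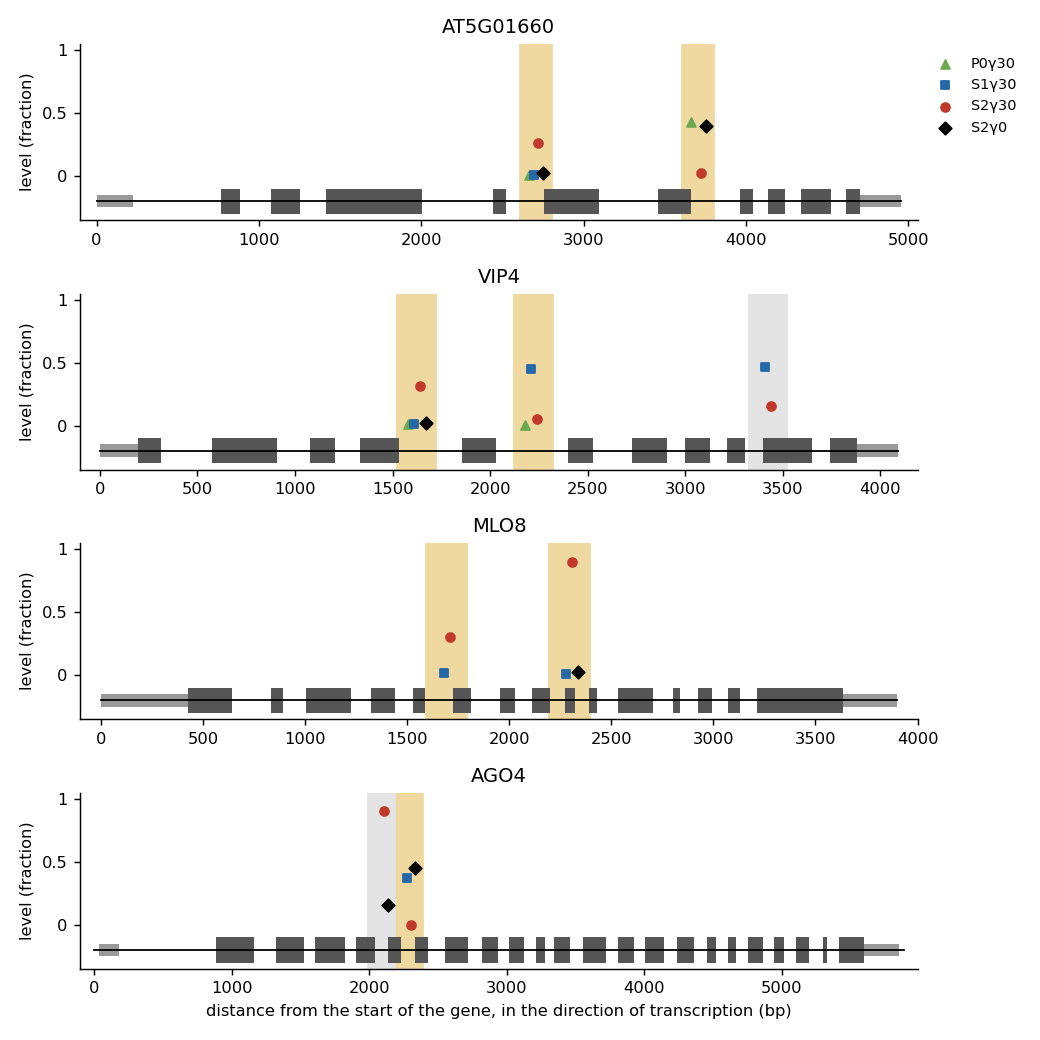
Listed CG windows of AT5G01660, VIP4 and MLO8 and an adjacent pair in AGO4 (shaded, tan for windows below 0.1 in some group and grey for others) along the gene (distance from its start in bp, dark boxes coding exons, light boxes UTRs, line introns), with the level in P0γ30 (triangle), S1γ30 (square), S2γ30 (circle) and S2γ0 (diamond) where listed, on a vertical axis from 0 to 1. Further listed windows of AGO4, at chr2:11538201-11538400 and chr2:11538801-11539000, are not drawn. In AGO4 the circle is at 0 in the tan window and at 0.902 in the grey one next to it.

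By function the genes were varied. The windows fell in 403 annotated genes, of which 194 matched at least 1 of 12 word lists applied to the RefSeq gene descriptions. These lists were written with earlier results of these data known, and they are given as counts beside the 871 genes of all listed gene-body windows and the 27444 protein-coding genes of the annotation. Directions below are read beside the 220 increases and 130 decreases of the whole set in S2γ30 against S1γ30.

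DNA repair and replication took 3 of the 403 genes (0.744%), where the shares were 0.574% of all listed gene-body genes and 0.496% of all protein-coding genes. All 3 genes found by the list were hypermethylated in S2γ30 against S1γ30. Beside emb2411 these were BRCA2B, a BRCA2-like repair protein, with 0.218 in S2γ30, 0.00800 in S1γ30, 0.00778 in P0γ30 and 0.00502 in S2γ0, and AT3G43930, a BRCT-domain protein, with 0.347 in S2γ30 and 0.0610 in S1γ30. In emb2411 the difference came from the loss in S1γ30, whereas in BRCA2B S2γ30 was the only methylated group of 4. MCM8 and RFC2, a replication factor C subunit, were not found by the words of this list. RFC2, named after its values were seen, went the other way. It had 0.00946 in S2γ30, against levels between 0.245 and 0.289 in S1γ30 and S2γ0. The shared direction therefore holds only for the genes that the words found.

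Genes found by the words for DNA methylation and chromatin numbered 4 (0.993%, against 1.26% of listed gene-body genes and 0.933% of all). CLSY4 and CLSY3 are SNF2-like remodellers that bring RNA polymerase IV to its targets for RNA-directed DNA methylation, and they went opposite ways. CLSY4 had 0.412 in S2γ30 and 0.0857 in S1γ30, and CLSY3 had 0.0117 in S2γ30 and 0.262 in S1γ30. The histone deacetylase HDA2 had 0.0414 in S2γ30 and 0.243 in S1γ30. AT1G20670, a bromodomain protein, had 0.402 in S2γ30, against 0.00893 in S1γ30 and 0.0556 in S2γ0. The words of this list missed AGO4, described above, and also ROS1 and LDL3, so the count is incomplete. ROS1 and LDL3 were named after their values were seen. The window of ROS1 had 0.0215 in S2γ30 and 0.285 in P0γ30, and that of LDL3 had 0.0505 in S1γ30 and 0.827 in P0γ30.

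The words for protein kinases and phosphatases matched a larger group, with 41 genes (10.2%), where 10.3% of listed gene-body genes and 6.09% of all protein-coding genes matched. They also took in AT5G19150, which is annotated as a carbohydrate kinase. In S2γ30 against S1γ30, 19 windows of this group were hypermethylated and 19 hypomethylated. AT3G19300, a receptor-like kinase, had 0.0247 in S2γ30, against 0.605 in S1γ30 and 0.553 in S2γ0. Metabolic enzymes made up 64 genes (15.9%, against 14.2% of listed gene-body genes and 14.7% of all), with 33 windows up and 21 down in S2γ30 against S1γ30. The shares of both groups were thus close to those of all listed gene-body genes.

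Transcription genes numbered 13 (3.23%, against 2.99% of listed gene-body genes and 4.55% of all), with 7 windows up and 3 down in S2γ30 against S1γ30 and 2 up and 4 down in S2γ30 against S2γ0. They included TAF6 and AT5G19420, an RCC1-family protein with a FYVE zinc finger, whose description names no role in transcription. AT5G19420 had 0.889 in S2γ30 and 0.0595 in S1γ30, with 0.840 in S1γ0. RNA processing took 12 genes (2.98%, against 3.10% and 2.36%), with 9 windows up and 1 down in S2γ30 against S1γ30, among them the RNA-binding proteins AT2G15500 (0.743 in S2γ30 and 0.0696 in S1γ30) and AT2G27330 (0.411 in S2γ30 and 0.00813 in S1γ30). Translation took 3 (0.744%, against 1.03% and 0.926%), among them TIF3F1, an initiation factor subunit, with 0.396 in S2γ30, 0 in S1γ30, 0.00738 in P0γ30 and 0.0182 in S2γ0, and RPS15AC, a ribosomal protein of the small subunit, with 0.0330 in S2γ30, against 0.412 in S1γ30 and 0.366 in P0γ30.

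Ubiquitin and proteasome genes numbered 18 (4.47%, against 3.90% of listed gene-body genes and 5.13% of all), with 9 windows up and 7 down in S2γ30 against S1γ30. Of these, AT2G37150, a RING protein, had 0.689 in S2γ30 and 0.0698 in S2γ0, and AT1G51550, a Kelch F-box protein, had 0.0217 in S2γ30 and 0.530 in S1γ30. Transporters and channels also numbered 18 (4.47%, against 4.48% and 3.23%), with 10 windows up and 4 down. NRAMP2, a manganese transporter of the trans-Golgi network, had 0.00797 in S2γ30 and 0.679 in S1γ30, the widest range of that list. Genes of the cytoskeleton and vesicle traffic numbered 14 (3.47%, against 3.79% and 2.40%), with 10 windows up and 4 down, led by SCAB2, an actin-binding protein, at 0.507 in S2γ30, against 0.0138 in S1γ30, 0.00397 in P0γ30 and 0.0156 in S2γ0, and by AGD4, a GTPase-activating protein, at 0.476 in S2γ30 and 0.00775 in S1γ30. Organelle and pentatricopeptide proteins numbered 10 (2.48%, against 2.18% and 1.70%), among them AT4G14190 with 0.0548 in S2γ30 and 0.621 in P0γ30. The nuclear pore list held AT4G38760 alone (0.248%, against 0.459% and 0.138%).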

How the data were processed

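The authors mapped the bisulfite reads of 45 samples to TAIR10 with CLC Genomics Workbench, computed a methylation level per group in windows of 200 bp, compared pairs of groups and deposited 18 tables, 10 with windows and 8 with a header line alone. The deposited levels are fractions from 0 to 1, 1 per group and comparison, pooled over samples by the authors. Columns with the authors' differences, p-values and status calls were not used, and differences were computed from the levels. R 3.5.0 and bedtools are named in the submitters' processing notes. The number of read counts behind a level is not known here.

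The level columns were assigned to groups by the table names. The same group and window had the same level in every table that listed it (largest difference 0 over 722 levels listed more than once), whereas 721 differed with the columns exchanged. The listed windows were set against the RefSeq annotation of TAIR10.1. No listed CG window lacked a CG there, and all coordinates printed are the authors'. For 355 of the 417 windows the listed name was found in the annotation no more than 50 kb away, and a protein-coding gene was otherwise taken by overlap. Windows were counted once per comparison. CG sites, CDS, UTR and intron bases were counted from the reference.

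The windows, word lists and named genes were chosen with earlier results of these data known. Genes were named by rule, namely the 12 windows listed in the most comparisons, the largest change per comparison and direction, every window of comparisons with at most 5, genes with 2 windows, all genes of the repair and chromatin lists, the 2 widest ranges of each other list and the 3 windows on either side of 0.1. Ties in the number of comparisons were settled by the widest range of levels. Genes outside this rule are marked as such in the text. Alternatives were a low level of 0.05 or 0.2, genes by annotation, at least 2 CG sites, a difference of at least 0.3, joining neighbours within 200 bp, counting each gene once and leaving out the largest table. No test was run. Python 3.11.15, NumPy 2.4.6, pandas 2.3.3, SciPy 1.17.1 and matplotlib 3.10.9 were used, and the rule was tested on simulated data.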

Additional observations from a re-analysis of the deposited data

How the results depend on the processing

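The number of windows was 417, against 828 when any window in a protein-coding gene of the annotation was taken in place of the authors' class, 214 with a difference of at least 0.3 and 211 without the comparison of S2γ30 with S1γ30. The median highest level of 0.323 became 0.357 with a low level of 0.2, 0.309 with at least 2 CG sites and 0.430 with a difference of at least 0.3, and the last of these raised the share of 1-CG windows to 22.0%, against 11.8%, since windows with more sites reach lower levels. The other 29 values stayed within 1.5 times the count or within the 95% exact interval of the value given, and in none of the alternatives run did the share of increases in S2γ30 against S1γ30 or S2γ0 fall below 50%. No paired analysis was possible because the tables hold 1 level per group, and for the same reason no replicate could be left out. The unknown coverage limits every level near 0.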
